A study of Mus musculus with 4 samples.

Results

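The melanocyte and pigment synthesis genes described here are 10 genes picked by name from the deposited gene table, and 10 of 10 were found among its 24441 genes. They are the enzyme genes Tyr, Tyrp1 and Dct, the melanosome protein genes Pmel, Mlana, Oca2 and Slc45a2, the transcription factor genes Mitf and Sox10, and the receptor gene Mc1r. RNA-seq of whole skin gave 2 libraries of GSDMD KO mice (genotype GSDMD-/-) and 2 of WT mice. All mice were female C57BL/6, given as 8 weeks old, and all had been injected under the skin of the back with bleomycin (BLM), a drug used to induce skin fibrosis, on alternate days over 28 days. Nothing says whether a library holds the RNA of 1 mouse or of several, so p-values measure the spread between these libraries, which may be technical. The KO allele had been made with Cas9 in C57BL/6 fertilized eggs and is not limited to a cell type, and no saline-treated skin is among the libraries. The comparison asks how loss of the pore-forming protein GSDMD alters gene expression in BLM-treated skin.

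Melanocytes make the pigment melanin inside melanosomes, organelles related to lysosomes. In the trunk skin of mice, pigment is made mainly by melanocytes of the hair follicle bulb during the growth phase of the hair cycle, and the pigment is handed to the keratinocytes that build the hair shaft. C57BL/6 mice are black. MITF, with SOX10 upstream of it, is known to drive the genes of pigment enzymes and melanosome proteins.

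Values are FPKM, fragments per kilobase of transcript, scaled to library size, so levels of different genes can be compared. Gsdmd, the targeted gene, was at 14.0 FPKM in WT replicate 1 and 18.2 FPKM in WT replicate 2, above the 3.53 FPKM of KO replicate 1 and the 2.26 FPKM of KO replicate 2. The libraries summed to between 448544 and 462251 FPKM. The table gives no depth. The FPKM that a single fragment adds in low genes puts it at about 12800000 to 17400000 fragments, so fragment numbers are approximate. KO replicate 2 stood apart from the other libraries on the first principal component, at 75.4 against a range of -53.9 to 6.17. Of the 10 melanocyte genes, 6 reached 1 FPKM in a library, and 5 reached it in at least 2 libraries and entered the test across genes.

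Pigment genes were high in 1 of the 2 KO libraries, whereas most lay near or below the WT libraries in the other. Dct, Mlana, Pmel and Tyrp1 were 7.66 to 11.1 times higher in KO replicate 1 than in the next highest library, while Mitf did not follow them. No melanocyte gene passed the test of KO against WT.

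**Figure D1:**
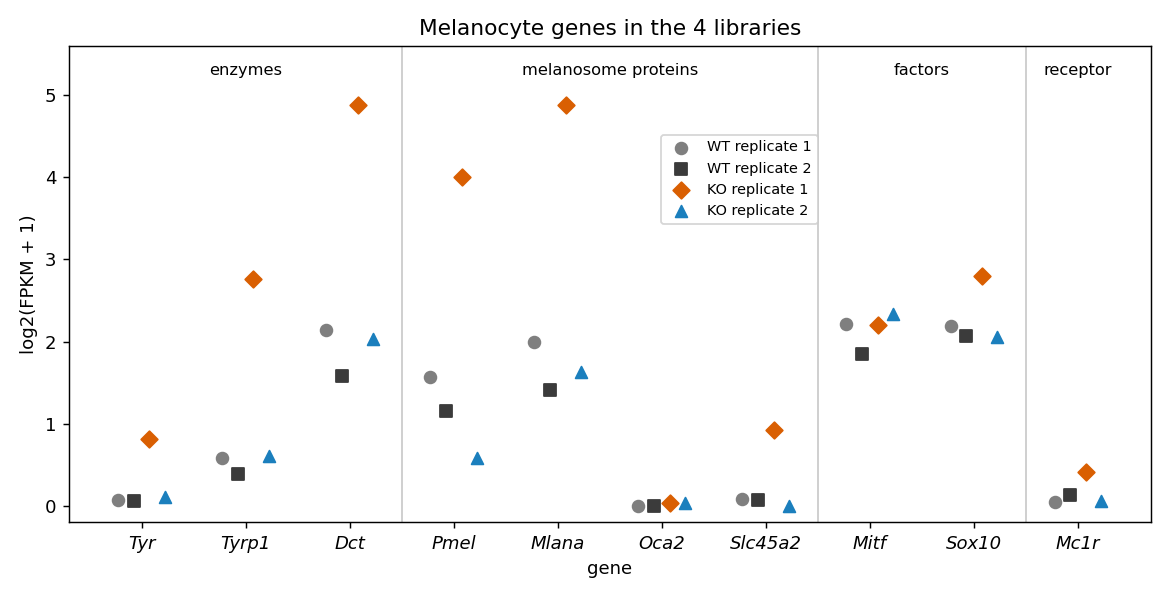
Level of each of the 10 melanocyte genes, as log2(FPKM + 1) on the vertical axis, with 1 point per library and genes ordered by role on the horizontal axis. KO replicate 1 (diamonds) reached 4.88 for Dct and Mlana, where the other libraries lay between 1.41 and 2.14, whereas the 4 points of Mitf lay between 1.84 and 2.34.

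The pigment enzymes form 1 protein family. Tyr encodes tyrosinase, the rate-limiting enzyme of melanin synthesis, Dct encodes dopachrome tautomerase and Tyrp1 encodes tyrosinase-related protein 1, both of which act later in the synthesis of black melanin. Their start regions are shown because MITF is known to act on the 3 genes through the M-box, an element with the core TCATGTG. The windows, from RefSeq on GRCm38.p6, run from 250 bases before to 50 bases after the start of the gene, 5′ to 3′ on the strand of the gene. Each was located in mm9 by exact match, and its start base was the start of the gene in the deposited table. Capitals mark the longest stretch that windows of these genes share, and the core TCATGTG on either strand.
Tyr, chr7:94641973-94642272, minus strand: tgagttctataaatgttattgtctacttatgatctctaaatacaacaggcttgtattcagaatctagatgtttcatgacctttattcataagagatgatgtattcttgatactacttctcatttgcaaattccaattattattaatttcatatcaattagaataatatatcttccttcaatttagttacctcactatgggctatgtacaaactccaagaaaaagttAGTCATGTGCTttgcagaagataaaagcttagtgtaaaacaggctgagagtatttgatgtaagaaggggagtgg
Tyrp1, chr4:80479867-80480166, plus strand: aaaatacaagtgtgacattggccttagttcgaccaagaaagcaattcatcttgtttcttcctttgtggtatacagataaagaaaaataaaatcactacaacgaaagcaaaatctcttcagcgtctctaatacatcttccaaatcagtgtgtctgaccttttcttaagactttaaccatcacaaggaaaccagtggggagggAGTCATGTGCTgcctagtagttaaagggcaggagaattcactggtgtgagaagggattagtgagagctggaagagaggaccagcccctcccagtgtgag
Dct, chr14:118451419-118451718, minus strand: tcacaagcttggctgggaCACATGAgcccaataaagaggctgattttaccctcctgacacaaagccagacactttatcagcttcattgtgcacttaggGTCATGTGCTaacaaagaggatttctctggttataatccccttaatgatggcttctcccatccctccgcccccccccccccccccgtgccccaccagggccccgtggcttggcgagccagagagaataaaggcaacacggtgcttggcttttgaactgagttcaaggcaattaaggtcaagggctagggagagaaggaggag

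The longest stretch common to the windows of Tyr and Tyrp1 was AGTCATGTGCT, 11 bases that contain the core of the M-box. Its first base was at position -24 in Tyr and -49 in Tyrp1, counted back from the start of the gene. Dct shared 10 of these bases, GTCATGTGCT, from position -152, and held the core again on the opposite strand from -232. Of all 32851 RefSeq windows of the same length, 0.0213% held AGTCATGTGCT on either strand, 0.186% held GTCATGTGCT and 3.77% held TCATGTG, each sequence lying within the longer one. Since both stretches were taken from these windows, their shares are a description. RefSeq windows were at hand for 6 of the 10 melanocyte genes, Pmel, Mlana, Slc45a2 and Sox10 being those without one. The core was in 4 of the 6, the 3 enzyme genes and Mc1r, against 4.31% of all genes with a window. Of the lists described below, 4 of 40 pigment pathway genes and 0 of 17 hair follicle markers with a window held it. The shorter E-box CATGTG, which the core contains, was in 5 of the 6, with Oca2 added, against 15.9% of all genes with a window, and CACGTG was in 0 of the 6 against 8.09%. The matches say nothing of whether MITF was bound.

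Dct (chromosome 14 of mm9 from 118412012 to 118451468, 8 exons in its longest annotated transcript) had 3.40 and 1.99 FPKM in WT replicates 1 and 2, 28.4 FPKM in KO replicate 1 and 3.10 FPKM in KO replicate 2. KO replicate 1 was 8.35 times the next highest library, and KO replicate 2 lay between the WT libraries, so the groups overlapped. The log2 fold change of KO against WT was 1.60 (standard error 0.93, 95% interval -0.79 to 3.98), and the adjusted p of 0.403 came from limma with the Benjamini-Hochberg method over 13027 genes. Fold changes are on the log2(FPKM + 1) scale and, for low genes, depend on the number added before the logarithm. With 0.1 in place of 1, that of Dct was 1.82 and that of Pmel fell from 0.93 to 0.86, while Mlana, Mitf and Sox10 rose.
Tyrp1 (chromosome 4 from 80480117 to 80497640, 8 exons) had 0.499 and 0.307 FPKM in the WT pair, 5.78 FPKM in KO replicate 1 and 0.519 FPKM in KO replicate 2. KO replicate 1 was 11.1 times the next highest library. Both KO libraries were above both WT libraries, although KO replicate 2 exceeded WT replicate 1 by little, with about 18.1 fragments against 23.7 in that deeper library. Tyrp1 reached 1 FPKM in 1 library and was below the filter of the test.
Tyr (chromosome 7 from 94573281 to 94642022, 5 exons) was low in every library, at 0.0537 and 0.0443 FPKM in the WT pair, 0.759 FPKM in KO replicate 1 and 0.0761 FPKM in KO replicate 2. About 44.6 fragments stood behind the value of KO replicate 1 and at most 4.14 behind any of the others. The level of tyrosinase RNA was therefore far below that of Dct in every library, and the order of the 3 lower libraries was not detectable at this depth.

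The melanosome structural genes followed the enzymes. Pmel encodes the protein that forms the fibrils on which melanin is laid down, and Mlana encodes the melanosome protein MART-1. Mlana (chromosome 19 from 29772431 to 29782796, 5 exons) had 2.98 and 1.66 FPKM in the WT pair, 28.4 FPKM in KO replicate 1 and 2.09 FPKM in KO replicate 2. As for Dct, KO replicate 1 was far above the other libraries (9.53 times the next highest) and KO replicate 2 lay within the WT range. The log2 fold change was 1.55 (standard error 1.06, 95% interval -1.15 to 4.25, adjusted p = 0.456 by limma).
Pmel (chromosome 10 from 128143314 to 128157294, 11 exons) had 1.97 and 1.22 FPKM in the WT pair, 15.1 FPKM in KO replicate 1 and 0.496 FPKM in KO replicate 2. Here the KO libraries were the highest and the lowest of the 4, with about 13.5 fragments in KO replicate 2. The log2 fold change of 0.93 had a standard error of 1.11 (95% interval -1.89 to 3.76, adjusted p = 0.654 by limma). An exon of Pmel overlaps Dgka on the opposite strand, and strand use in the counting is not given in the sources used here. Dgka had 12.6 and 11.6 FPKM in the WT pair and 21.2 and 39.2 FPKM in KO replicates 1 and 2, so its highest value fell in the library with the lowest Pmel.
The transporter genes were much lower. Slc45a2 (chromosome 15 from 10930476 to 10958988, 7 exons), which encodes a melanosome transporter needed for pigment synthesis, had 0.0572 and 0.0467 FPKM in the WT pair, 0.900 FPKM in KO replicate 1 and was listed at 0 in KO replicate 2. About 37.0 fragments were behind the value of KO replicate 1 and at most 2.97 behind the others. Oca2 (chromosome 7 from 63495141 to 63791887, 25 exons), the gene of the melanosome ion transport protein P, was listed at 0 in WT replicates 1 and 2 and had 0.0232 and 0.0250 FPKM in KO replicates 1 and 2. Each of these KO values corresponds to about 1.08 fragments, so a difference in Oca2 was not detectable at this depth.

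The transcription factor genes differed less between libraries than the pigment genes did. Mitf (chromosome 6 from 97757052 to 97971352, 10 annotated transcripts) had 3.64 and 2.59 FPKM in the WT pair and 3.62 and 4.05 FPKM in KO replicates 1 and 2. KO replicate 1, in which Dct and Mlana were highest, lay between the WT libraries for Mitf. The log2 fold change was 0.24 (standard error 0.26, 95% interval -0.43 to 0.91, adjusted p = 0.622 by limma). Mitf has several start sites, of which 1 is used in melanocytes and others in many cell types including macrophages and mast cells. The table holds 1 value for the whole gene, and the melanocyte form was not separated.
Sox10 (chromosome 15 from 78985343 to 78994920, 4 exons), a factor of neural crest cells that is expressed in melanocytes and in Schwann cells, had 3.58 and 3.19 FPKM in the WT pair, 5.97 FPKM in KO replicate 1 and 3.17 FPKM in KO replicate 2. KO replicate 1 was 1.67 times the next highest library, and the other 3 libraries lay close together. The log2 fold change of 0.30 was within its standard error of 0.33 (95% interval -0.54 to 1.14, adjusted p = 0.626 by limma).
Mc1r (chromosome 8 from 125930982 to 125934647, 1 exon), the melanocortin receptor that turns melanocytes towards black pigment, had 0.0305 and 0.0936 FPKM in the WT pair, 0.331 FPKM in KO replicate 1 and 0.0419 FPKM in KO replicate 2. About 16.7 fragments were behind the value of KO replicate 1 and at most 4.91 behind the others. The highest library was again KO replicate 1, and the order of the rest was not detectable.

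Ranked by their level in the WT libraries, Sox10 (3.38 ± 0.277 FPKM, SD, n = 2), Mitf (3.12 ± 0.745), Dct (2.70 ± 0.995), Mlana (2.32 ± 0.933) and Pmel (1.60 ± 0.534) came first. From Sox10 to Mlana each mean differed from the next by less than the SD of either gene, while Mlana exceeded Pmel by more than the SD of Pmel. Within each WT library Dct was above Mlana (1.14 and 1.20 times) and Mlana above Pmel (1.51 and 1.37 times). Tyrp1 followed at 0.403 ± 0.136 FPKM. In KO replicate 1 the order was Mlana, Dct, Pmel, Sox10, Tyrp1 and Mitf, with both factor genes behind the pigment genes Mlana, Dct and Pmel. The KO libraries had 15.7 ± 17.9 FPKM of Dct and 15.3 ± 18.6 FPKM of Mlana (SD, n = 2), standard deviations larger than the means.

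Within a library, several pigment genes kept similar ratios while their levels differed. The ratio of Dct to Tyrp1 was 6.81 and 6.48 in the WT libraries and 4.91 and 5.97 in KO replicates 1 and 2. For Dct over Mlana it was 1.14 and 1.20 in the WT libraries and 0.998 and 1.48 in the KO libraries. Both ratios thus varied by less than 1.5 times over libraries in which Dct itself ran from 1.99 to 28.4 FPKM. Against the factor genes the picture was different. The ratio of Dct to Mitf was 0.933, 0.769 and 0.765 in WT replicates 1 and 2 and KO replicate 2 but 7.85 in KO replicate 1, and that of Dct to Sox10 was 4.76 in KO replicate 1 and between 0.626 and 0.977 elsewhere. Pmel left the pattern in KO replicate 2, where Dct was 6.25 times Pmel, against 1.64 to 1.88 times in the other libraries. These ratios are single values per library and were not tested.

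**Figure D2:**
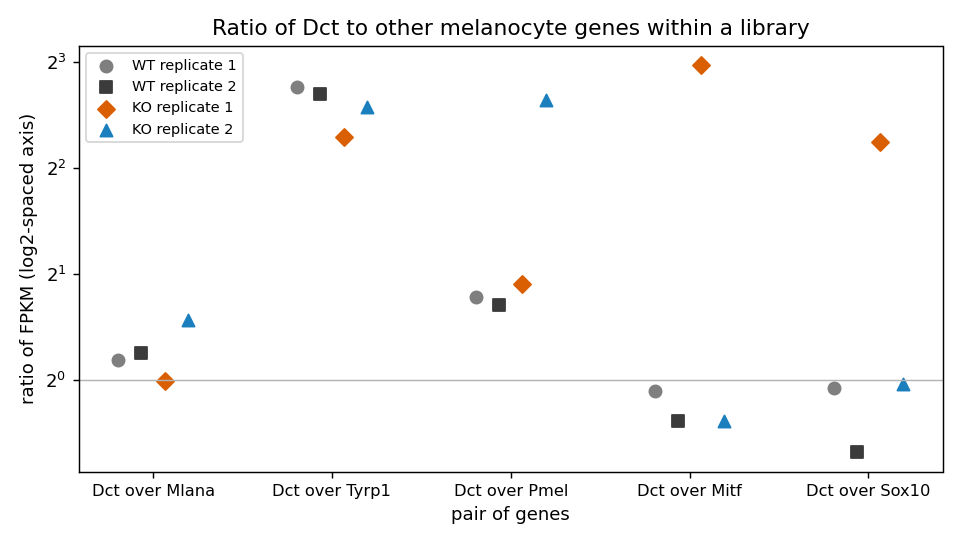
Ratio of the FPKM of Dct to that of 5 other genes within each library, on a log2-spaced vertical axis, with 1 point per library. Dct over Tyrp1 stayed between 4.91 and 6.81, whereas Dct over Mitf was 7.85 in KO replicate 1 and at most 0.933 in the other libraries.

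By limma, 0 of the 5 tested melanocyte genes had an adjusted p under 0.05 with an absolute log2 fold change above 1, as for all tested genes (0 of 13027, 0%). Before adjustment (p under 0.05, same limit of fold change), 0 of the 5 passed in either direction, against 6.16% of all tested genes higher (802) and 4.14% lower (539) in KO libraries. This split was 656 and 667 with upper-quartile scaling and 614 and 700 with median-ratio scaling. The adjusted p-values of the 5 ran from 0.403 to 0.654. Their median log2 fold change was 0.93, beside 0.11 over all tested genes. With median-ratio scaling these medians were 0.85 and -0.01, and each of the 5 stayed above 0 under every scaling tried. For 1 gene, the smallest p that an exact permutation test (two-sided) can give with 2 against 2 libraries is 0.333. Of all 10 melanocyte genes, 3 (Tyr, Tyrp1 and Oca2) had both KO libraries above both WT libraries and 0 had both below, against 28.8% and 19.2% of all genes above 0 in a library. For Tyr and Oca2 this separation rests on a few fragments and was not detectable at this depth. For Tyrp1 it rests on 0.519 FPKM in KO replicate 2 against 0.499 FPKM in WT replicate 1, about 18.1 against 23.7 fragments. Among the 5 tested, 0 were separated in either direction, against 35.3% of tested genes with KO above and 20.5% with KO below.

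The result for Dct, Mlana and Pmel turned on which KO library was used. Without KO replicate 2, these 3 passed the threshold, with log2 fold changes of 3.02 (adjusted p = 0.0189), 3.18 (adjusted p = 0.0174) and 2.65 (adjusted p = 0.0287) by limma, a fit in which the lone KO library is assumed to vary like the WT libraries. In that fit 43 of all 13027 tested genes passed (0.33%). Without KO replicate 1, they were 0.18, -0.07 and -0.78, so Mlana and Pmel turned to the other direction. For Mitf the log2 fold change stayed between 0.06 and 0.43 whichever library was left out.

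**Figure D3:**
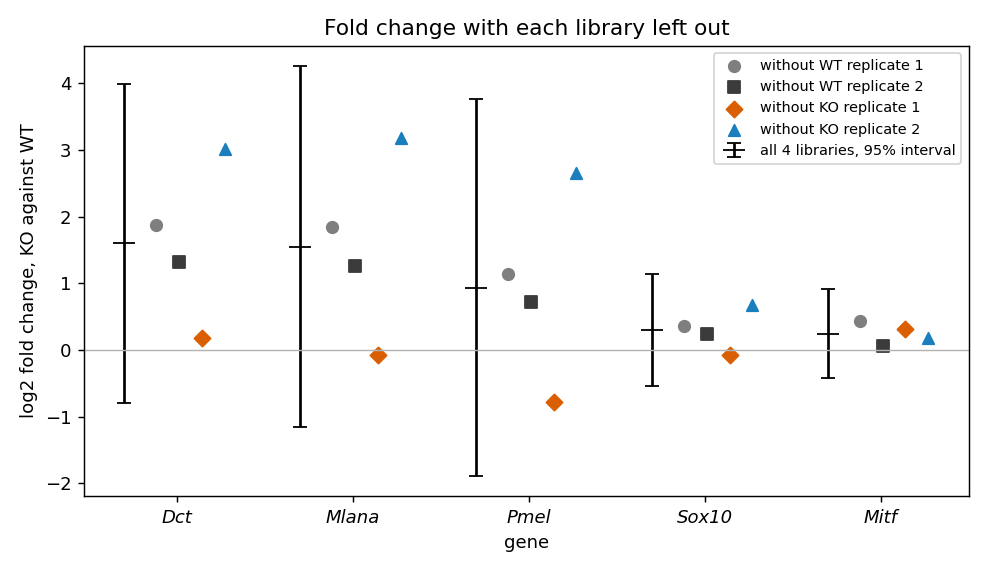
Log2 fold change of KO against WT on the log2(FPKM + 1) scale for the 5 tested melanocyte genes, with all 4 libraries (dash with 95% interval from limma) and with each library left out (points). Leaving out KO replicate 1 placed Pmel at -0.78 and leaving out KO replicate 2 placed it at 2.65, while all points of Mitf lay between 0.06 and 0.43.

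In 8 of the 10 melanocyte genes KO replicate 1 was the highest library, against 21.8% of all genes above 0 in a library. In 7 of the 10 it exceeded each other library by more than 2 times, against 4.35% of those genes, a rule chosen after the values had been seen. Among the 13027 tested genes, where 0.983% met it, 3 of the 5 melanocyte genes did, and in 4 of the 5 KO replicate 1 was highest, against 18.9%. Measured as the difference between KO replicate 1 and the mean of the other 3 libraries on the log2(FPKM + 1) scale, Mlana ranked 16, Dct 18 and Pmel 19 of 13027 genes, with differences of 3.20, 2.96 and 2.91. Sox10 ranked 964 with 0.69 and Mitf 6391 with 0.08. The genes whose values over the 4 libraries lay nearest to the median profile of the 5 tested melanocyte genes were Dlx3, Coch, Npy, Myl3 and Lrrc15, at Euclidean distances of 0.589 to 0.762 log2 units over these 4 libraries. The nearest, Dlx3, a homeobox gene of the hair follicle and epidermis, had 3.77 and 1.54 FPKM in the WT pair and 15.5 and 2.22 FPKM in KO replicates 1 and 2.

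Other genes of the pigment pathway were taken from a list of 48, of which 47 are in the table and 37 were tested. By limma 0 of the 37 passed the adjusted threshold. Before adjustment, 4 of the 37 were higher and 1 was lower, beside the 6.16% and 4.14% of all tested genes, and the median log2 fold change of the 37 was -0.05. KO replicate 1 was the highest library in 18 of the 47, against 21.8% of all genes above 0 in a library. It exceeded each other library by more than 2 times in 7 of the 47, against 4.35%. Among the 37 tested it was highest in 11, against 18.9%, and exceeded each other library by more than 2 times in 0, against 0.983%. Asip, which encodes the antagonist of MC1R, was not analysed here.
Several genes for melanosome proteins were low. Slc24a5, a cation exchanger of the melanosome, had 0.438 FPKM in WT replicate 1, close to 0 in WT replicate 2, 2.99 FPKM in KO replicate 1 and 0.231 FPKM in KO replicate 2. An exon of Slc24a5 overlaps Myef2 on the opposite strand. Trpm1, a cation channel gene that MITF is known to regulate, had 0.503 and 0.185 FPKM in the WT pair and 3.15 and 0.339 FPKM in KO replicates 1 and 2. Both were highest in KO replicate 1. Gpr143, the gene of a melanosome receptor, did not exceed 0.238 FPKM, again in that library. Gpnmb, a relative of Pmel that macrophages also express, had 26.7 and 18.4 FPKM in the WT pair and 21.7 and 4.52 FPKM in KO replicates 1 and 2. It was lowest in KO replicate 2, where a list of 9 macrophage genes summed to 94.0 FPKM, against 869 in KO replicate 1 and 2123 and 2200 FPKM in the WT pair, and the part of those cells in the Gpnmb values was not tested.

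The 14 genes needed to build lysosome-related organelles, such as Hps1, Ap3b1 and Dtnbp1, are used by many cell types. For them the difference between KO replicate 1 and the mean of the other libraries ran from -0.38 to 0.36 on the log2 scale, with a median of -0.02. The difference between KO replicate 2 and the WT mean ran from -0.53 (Vps33a) to 0.45 (Lyst). Among the genes that move melanosomes along the cytoskeleton, Rab27a had 3.32 and 3.0 FPKM in the WT pair and 5.46 and 4.68 FPKM in the KO pair (log2 fold change 0.54, adjusted p = 0.323 by limma). Myo5a, which encodes the myosin motor, had 4.05 and 4.43 FPKM in the WT pair and 4.28 and 2.72 FPKM in the KO pair. Mlph, whose product links RAB27A to this motor, stayed under 1 FPKM in every library, with its highest value, 0.941 FPKM, in KO replicate 1. KO replicate 1 exceeded the next highest library by 2.13 times for Mlph, less than for any of the 3 enzyme genes.

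The signals of the pathway act between melanocytes and their neighbours. Kit, the receptor that melanocytes and mast cells need, had 1.31 and 1.92 FPKM in the WT pair and 2.92 and 0.510 FPKM in KO replicates 1 and 2. Its ligand gene Kitl had 3.39 and 1.91 FPKM in the WT pair and 5.69 and 4.02 FPKM in the KO pair, so both KO libraries were above both WT libraries (log2 fold change 0.70, adjusted p = 0.337 by limma). Ednrb, the endothelin receptor gene of melanoblasts and blood vessels, had 4.26 and 3.52 FPKM in the WT pair, 6.89 FPKM in KO replicate 1 and 0.452 FPKM in KO replicate 2. Edn3, which encodes its ligand, did not exceed 0.719 FPKM, reached in KO replicate 1. Pomc, from which the ligand of MC1R is made, was highest in WT replicate 2, at 0.826 FPKM, and between 0.190 and 0.265 FPKM elsewhere. KO replicate 2, which was low in Kit and Ednrb, also had the lowest sums of mast cell genes (12.5 FPKM, against 76.0 to 104 FPKM) and endothelial genes (7.22 FPKM, against 60.1 to 85.0 FPKM). The part of those cells in the values of Kit and Ednrb was not tested.
Pax3, a factor of melanoblasts, had 0.166 and 0.0409 FPKM in the WT pair, 0.788 FPKM in KO replicate 1 and 0.183 FPKM in KO replicate 2. Lef1, a Wnt pathway factor of the hair bulb and of melanocytes, had 0.404 and 0.0620 FPKM in the WT pair, 2.73 FPKM in KO replicate 1 and 0.572 FPKM in KO replicate 2. Both were highest in KO replicate 1. Sox9, Tfap2a, Snai2 and Rab38 were the 4 list genes that passed the unadjusted threshold as higher, with log2 fold changes of 1.96, 2.24, 1.75 and 1.64, and limma gave each an adjusted p of 0.248. They differed from the pigment genes in that KO replicate 2 was the highest library, for example 33.5 FPKM of Tfap2a against 19.6 in KO replicate 1 and 6.31 and 3.37 FPKM in the WT pair. Sox9, Tfap2a and Snai2 are also factors of keratinocytes. Mfsd12, the gene of a lysosome and melanosome transporter, was the 1 gene that passed as lower with all 4 libraries, with 5.31 and 6.73 FPKM in the WT pair and 3.44 and 0.792 FPKM in the KO pair (adjusted p = 0.279 by limma). No pathway gene passed as lower with a pseudocount of 0.1 or with no filter, and the count changed whichever library was left out.

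**Figure D4:**
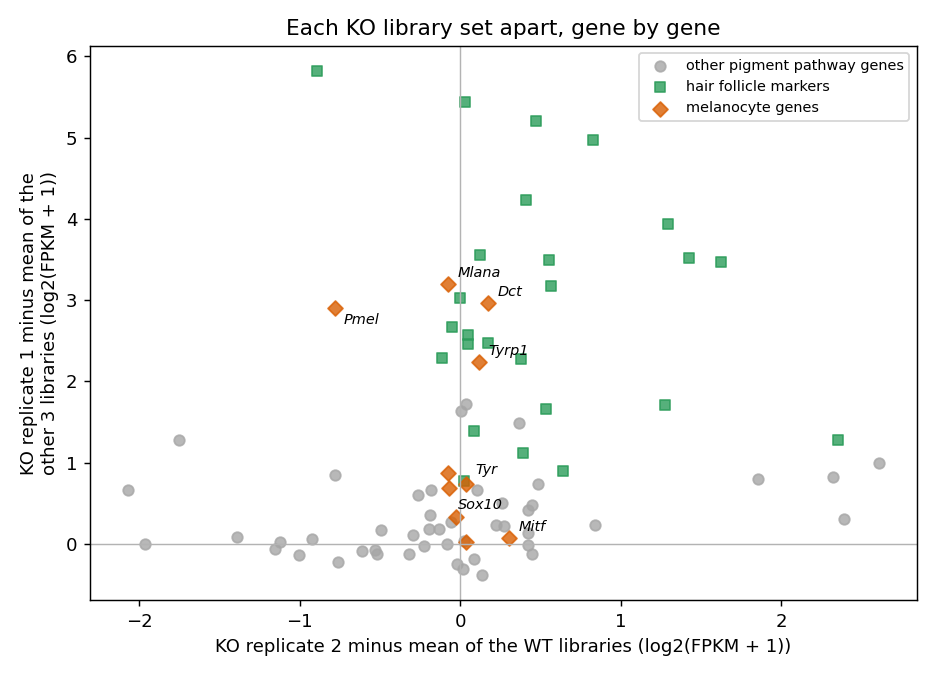
Each point is 1 gene, with the difference between KO replicate 2 and the mean of the WT libraries on the horizontal axis and that between KO replicate 1 and the mean of the other 3 libraries on the vertical axis, both in log2(FPKM + 1). Mlana (3.20), Dct (2.96), Pmel (2.91) and Tyrp1 (2.24) stand high on the vertical axis among the hair follicle markers, while Mitf (0.08) lies with most other pigment pathway genes.

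Markers of the hair follicle were highest in the same library as the pigment genes. The 25 follicle genes, keratins of the inner root sheath and hair shaft such as Krt25, Krt27 and Krt28 among them, summed to 20.6 and 7.03 FPKM in the WT pair, 564 FPKM in KO replicate 1 and 36.1 FPKM in KO replicate 2. KO replicate 1 was the highest library in 24 of the 25, and it exceeded each other library by more than 2 times in 23. Krt25 reached 84.1 FPKM in KO replicate 1, against 2.43 FPKM in WT replicate 1, and was listed at 0 in the other libraries, and no follicle marker was at 0 in all 4. The summed level of the 10 melanocyte genes was 16.2 and 11.1 FPKM in the WT pair, 89.3 FPKM in KO replicate 1 and 13.6 FPKM in KO replicate 2. In KO replicate 2 the follicle sum was thus above both WT libraries while the melanocyte sum lay between them. The 8 epidermal keratinocyte genes summed to 4969 and 3557 FPKM in the WT pair and to 10695 and 5182 FPKM in KO replicates 1 and 2, so their sum was highest in KO replicate 1, by 2.06 times over the next library. Of the 8, 5 were highest in KO replicate 1 and 3 (Krt14, Trp63 and Dsg3) in KO replicate 2. The 7 fibroblast genes summed to 324 and 231 FPKM in the WT pair and to 511 and 31.5 FPKM in KO replicates 1 and 2. The 5 proliferation genes summed to 17.2 and 7.32 FPKM in the WT pair and to 30.0 and 57.5 FPKM in KO replicates 1 and 2. Each was highest in KO replicate 2. Each also had both KO libraries above both WT libraries, against 35.3% of all tested genes. The part of follicle, epidermal and dermal content in the melanocyte values was not tested. In bulk skin, fewer or more melanocytes and less or more RNA per melanocyte cannot be told apart.

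**Figure D5:**
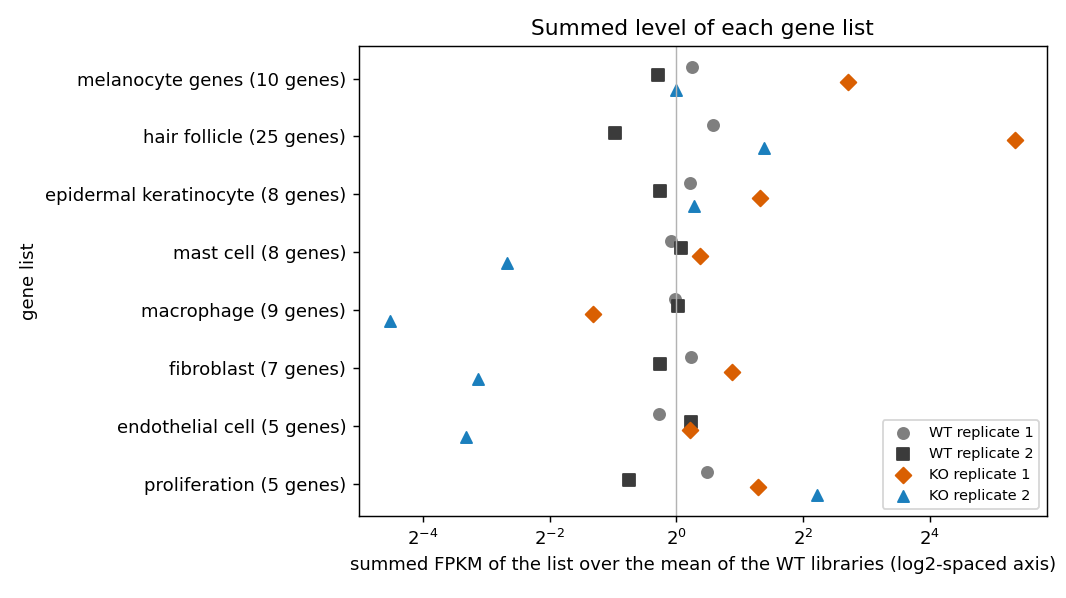
Summed FPKM of the 10 melanocyte genes and of 7 marker lists in each library, divided by the mean of the WT libraries, on a log2-spaced horizontal axis with 1 point per library. KO replicate 1 stands farthest to the right for the hair follicle list (564 FPKM) and the melanocyte genes (89.3 FPKM), and KO replicate 2 is farthest to the left for the macrophage list (94.0 FPKM).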

How the data were processed

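The 4 libraries of BLM-treated skin, 2 per genotype, were grouped by their labels. Values in the deposited table are FPKM, despite its name: 99.993% of those above 0 had decimals. Alignment by the authors was to mm9, using HISAT2 version 2.0.1, and they counted reads per gene, and the submitters' processing notes also name StringTie version 2.0.6. The program that made the FPKM values is not given in the sources used here. Whole counts were not recovered from them, so the count model of the paper was not used.

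Values were transformed to log2(FPKM + 1), and genes reaching 1 FPKM in 2 or more libraries (13027 genes) went into limma (version 3.58.1, R version 4.3.3). The model held genotype alone, with a mean-variance trend. Adjustment was by Benjamini-Hochberg, and calls used the limits of the paper (adjusted p under 0.05, log2 fold change beyond 1 in either direction). The fit was also run on simulated data with known changes, whose outcome is not given here. Nothing says that a replicate number marks a shared litter or day, so libraries were treated as unpaired. Listed start positions were read as counted from 0, since 9897 of 20286 genes found in the GENCODE annotation of mm9 began 1 base later there and 576 at the same base. Depth was estimated on 2710 genes whose 1 annotated transcript has 2000 bases or more, and the fragments behind a value from the longest annotated transcript. No interval was derived from these estimates.

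The members and gene lists were chosen with earlier results of these data known. All 10 melanocyte genes are named, with 15 fixed genes of the pathway list and any list gene past the unadjusted threshold. The genes most alike are the 5 nearest to the median deviations of the tested members. Dgka, the overlap with Myef2 and the comparison of KO replicate 1 with each other library were chosen after values were seen. Lists of marker genes are given by their sums, and the list of Schwann cell genes is not reported here. Alternatives were other pseudocounts, filters and scalings, limma without the trend, the replicate number as a block and leaving out each library.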

Additional observations from a re-analysis of the deposited data

How the results depend on the processing

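The count of melanocyte genes past the adjusted threshold was 0 by limma with all 4 libraries and stayed 0 under pseudocounts of 0.1 and 0.5, with weaker filters, under upper-quartile, median-ratio and TPM scaling, without the trend and with either block. Leaving out each library gave 0 to 3 such genes, the 3 (Dct, Mlana and Pmel) arising when KO replicate 2 was left out. The median log2 fold change of the tested melanocyte genes, 0.93, ran from 0.39 with no filter to 1.07 with 1 FPKM in 1 library among the other settings, and from -0.069 to 2.65 when each library was left out, the extremes being without KO replicates 1 and 2. Leaving out KO replicate 1 turned Pmel to -0.78, Mlana to -0.074 and Sox10 to -0.069, and over all 4 omissions their highest values were 2.65, 3.18 and 0.67.

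For the pathway list the count past the adjusted threshold was 0 in all settings but 1, where it was 9, without KO replicate 1. Over all tested genes it was 0 with all libraries, 2058 without KO replicate 1 and 43 without KO replicate 2. With the unadjusted p, 802 genes were higher and 539 lower. These counts were 1412 and 1605 without KO replicate 1, 266 and 242 without WT replicate 2, and 333 lower without KO replicate 2. Across all genes the median log2 fold change was 0.11, and it was -0.01 with median-ratio scaling.

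With the replicate number as a block, 2 melanocyte genes (Dct and Mlana) passed the unadjusted threshold as higher and 0 the adjusted one, beside 907 of 13027 tested genes higher (6.96%) and 686 lower (5.27%). The pathway list then had 2 genes lower in place of 1. The block rests on a number that no source explains, and deviations of same-numbered libraries had a correlation of -0.20 over 13027 genes. The crossed pairing, added after seeing the data, gave 0 adjusted calls and 0 melanocyte genes past the unadjusted threshold. Depth limits Tyr, Slc45a2, Mc1r and Oca2 most.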
